A study of Mus musculus with 40 samples.

Results

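Keratins and tight junction proteins give epithelial tumor cells their inner skeleton and their seals. Here 10 of their genes were followed across the primary tumors of 2 mouse models of triple-negative breast cancer (TNBC), namely 6 keratin genes (Krt5, Krt7, Krt8, Krt14, Krt18 and Krt19), 3 claudin genes (Cldn3, Cldn4 and Cldn7) and the occludin gene Ocln. They were chosen by name, with earlier results of these data known, and all 10 were found among the 14318 genes listed for 39 tumors. The study asked how chitin, given as a blocker of chitinase-like proteins, and anti-PD-1 immune checkpoint blockade acted on tumors of the 4T1- and 66cl4-based intraductal models. All mice were WT female BALB/c mice that had been mated at 8 w of age and were lactating, and their pups were weaned after 12 to 14 d. The mothers then received luciferase-expressing 4T1 or 66cl4 mammary tumor cells through the teat canal of the third mammary gland pair. Each model is thus a single cell line grown in a gland that had just ended lactation, and host epithelium can be part of the sample. Treatment started at 3 w post-inoculation (p.i.) and lasted 2 w, and tumors were collected at 5 w p.i. The 4 groups of each model were untreated mice, mice given 200 µg anti-PD-1 antibody (clone RMP1-14, mIgG1e3) weekly, mice given 1 mg chitin every 3 d, and mice given both (chitin + anti-PD-1), all intraperitoneally. Each group had 5 tumors except untreated 4T1 with 4, because the authors removed tumor 3 for RNA degradation.

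Keratins form filaments only as pairs of a type I and a type II chain. Krt8 (type II) and Krt18 (type I) are the pair of simple and luminal epithelium, where Krt7 (type II) and Krt19 (type I) also occur, whereas Krt5 (type II) and Krt14 (type I) are the pair of basal and myoepithelial cells and of the skin's lowest layer. Claudins form the strands of the tight junction that seal the space between epithelial cells, and occludin is a further membrane protein of these strands. Loss of such genes is a usual feature of carcinoma cells that have taken on a mesenchymal shape.

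The genes lie in a few clusters of the mouse genome (build GRCm38.p6, the assembly of mm10). Krt7 (chr15:101412403-101427806), Krt5 (chr15:101707069-101712905) and Krt8 (chr15:101996711-102004342) belong to the type II keratin cluster. Krt18 (chr15:102028216-102032026) is a type I gene at the end of this cluster, 23873 bases from Krt8 and on the opposite strand. Krt19 (chr11:100140810-100145926) and Krt14 (chr11:100203162-100207510) are in the type I cluster, 57235 bases apart. Cldn4 (chr5:134945123-134946934) and Cldn3 (chr5:134986214-134987476) are neighbors 39279 bases apart, while Cldn7 (chr11:69964779-69967886) and Ocln (chr13:100496504-100552718) stand alone.

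The promoters of 2 neighboring claudin genes and of the keratin genes Krt18 and Krt5 are shown because these genes ranged from the largest to the smallest differences between the models. The windows are the bases before the RefSeq start of each gene, read 5′ to 3′ on the gene's strand, and capitals mark the 6-base E-box CACCTG or its reverse complement CAGGTG, the letters that repressors of the Snail and Zeb families are known to bind. The Cldn4 window is chr5:134946935-134947184 (minus strand), the Cldn3 window chr5:134985964-134986213 (plus strand), the Krt18 window chr15:102027966-102028179 (plus strand, without its last 36 bases, which GENCODE transcripts cover) and the Krt5 window chr15:101712906-101713155 (minus strand).
Cldn4: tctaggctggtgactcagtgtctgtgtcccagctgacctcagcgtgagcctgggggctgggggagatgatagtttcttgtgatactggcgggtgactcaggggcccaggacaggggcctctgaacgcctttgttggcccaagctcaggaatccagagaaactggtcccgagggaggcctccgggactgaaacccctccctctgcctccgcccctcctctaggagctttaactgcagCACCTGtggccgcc
Cldn3: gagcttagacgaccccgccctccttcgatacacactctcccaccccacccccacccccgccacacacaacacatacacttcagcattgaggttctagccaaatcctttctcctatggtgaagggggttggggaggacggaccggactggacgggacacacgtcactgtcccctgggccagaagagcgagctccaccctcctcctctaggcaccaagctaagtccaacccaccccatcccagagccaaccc
Krt18: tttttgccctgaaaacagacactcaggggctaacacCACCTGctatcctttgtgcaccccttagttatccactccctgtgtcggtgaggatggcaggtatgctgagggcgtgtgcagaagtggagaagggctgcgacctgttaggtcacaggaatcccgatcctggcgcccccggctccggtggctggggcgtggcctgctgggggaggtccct
Krt5: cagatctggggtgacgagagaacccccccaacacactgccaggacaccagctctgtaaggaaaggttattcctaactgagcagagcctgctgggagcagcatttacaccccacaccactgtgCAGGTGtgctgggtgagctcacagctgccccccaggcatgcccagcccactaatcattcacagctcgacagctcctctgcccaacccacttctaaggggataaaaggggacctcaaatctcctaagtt
Of 9 genes with an entry in the RefSeq-derived promoter table (Krt19 has none), 5 carried this E-box on either strand within 250 bases of their first listed start, namely Krt5, Krt7, Krt8, Krt18 and Cldn4, while it occurred in 17.1% of the first listed promoters of 27025 genes. GENCODE exons cover 205 of the 250 bases of the Krt7 window and 140 of the Krt8 window. The E-boxes of these 2 genes may thus lie in transcribed sequence rather than before it. The Cldn3 window shown had none. The first listed start of Krt14 lies inside the gene as GENCODE gives it, so that its window, which had none, does not cover the promoter at that gene's outer end. AACCGG or CCGGTT, a half-site of grainyhead-like factors, was in 0 of the 9 first windows and in 5.55% of all, and TATAAA on the gene's strand was in 0 of the 9 and in 8.12% of all. Cldn7 and Ocln have a second listed start, and the 250 bases before it held 2 E-boxes and 1 grainyhead half-site in each of these genes. These second windows lie inside the gene, wholly for Cldn7 and mostly for Ocln, and not before its outer end. Krt8, which differed least in fold between the models, and Cldn4, which differed most, both held the E-box in their first windows.

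The deposited values are on a log2-like scale after variance stabilizing transformation (VST), on which 6.05 stands for a count of 0 and on which differences of weakly expressed genes are compressed. Normalized counts, recovered from these values, are a gene's reads after scaling with the size factor of its tumor, and are given for levels and ratios. Tests were made on the VST values with limma, adjusted over all 14318 genes, with a threshold of 0.05. The tumors held 5105898 to 14800352 reads (median 6590274), and in 66cl4 the chitin-containing groups were deeper than the other groups (mean 9901574 and 6446900 reads). RNA came from whole tumors, so that fewer cells of a type and less RNA per cell cannot be told apart. Nothing in the labels links the tumor numbers of different groups, and the labels do not say whether a mouse gave more than 1 tumor. Cells went into a gland pair, and the paper gives more tumor volumes than lungs per group, so tumors of a group may share a mouse. The p-values treat each tumor as an independent unit and rest on the spread between these tumors.

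All 10 genes were higher in 4T1 than in 66cl4 tumors when the 4 treatment groups of each model were averaged with equal weight, and 40.8% of all genes were called higher in this comparison. In untreated tumors alone, 9 of the 10 were called higher, against 28.7% of all genes, and Krt5 was not (1.31 ± 0.66 (SE), adjusted p = 0.0921). For 7 genes, namely Krt7, Krt14, Krt18, Cldn3, Cldn4, Cldn7 and Ocln, every one of 19 4T1 tumors lay above every one of 20 66cl4 tumors, which was the case for 9.87% of all genes. The ratio of mean normalized counts was at least 10 for 7 of the 10 genes and for 4.23% of all genes, and at least 50 for 4 of the 10 and for 0.929% of all genes. Ocln had 10 reads or fewer in 18 of 20 66cl4 tumors. It passed the authors' filter (over 10 reads in at least 10% of cases) only through 4T1, so its place in these counts was partly set by that filter. The median difference over all genes was 0.01.

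**Figure D1:**
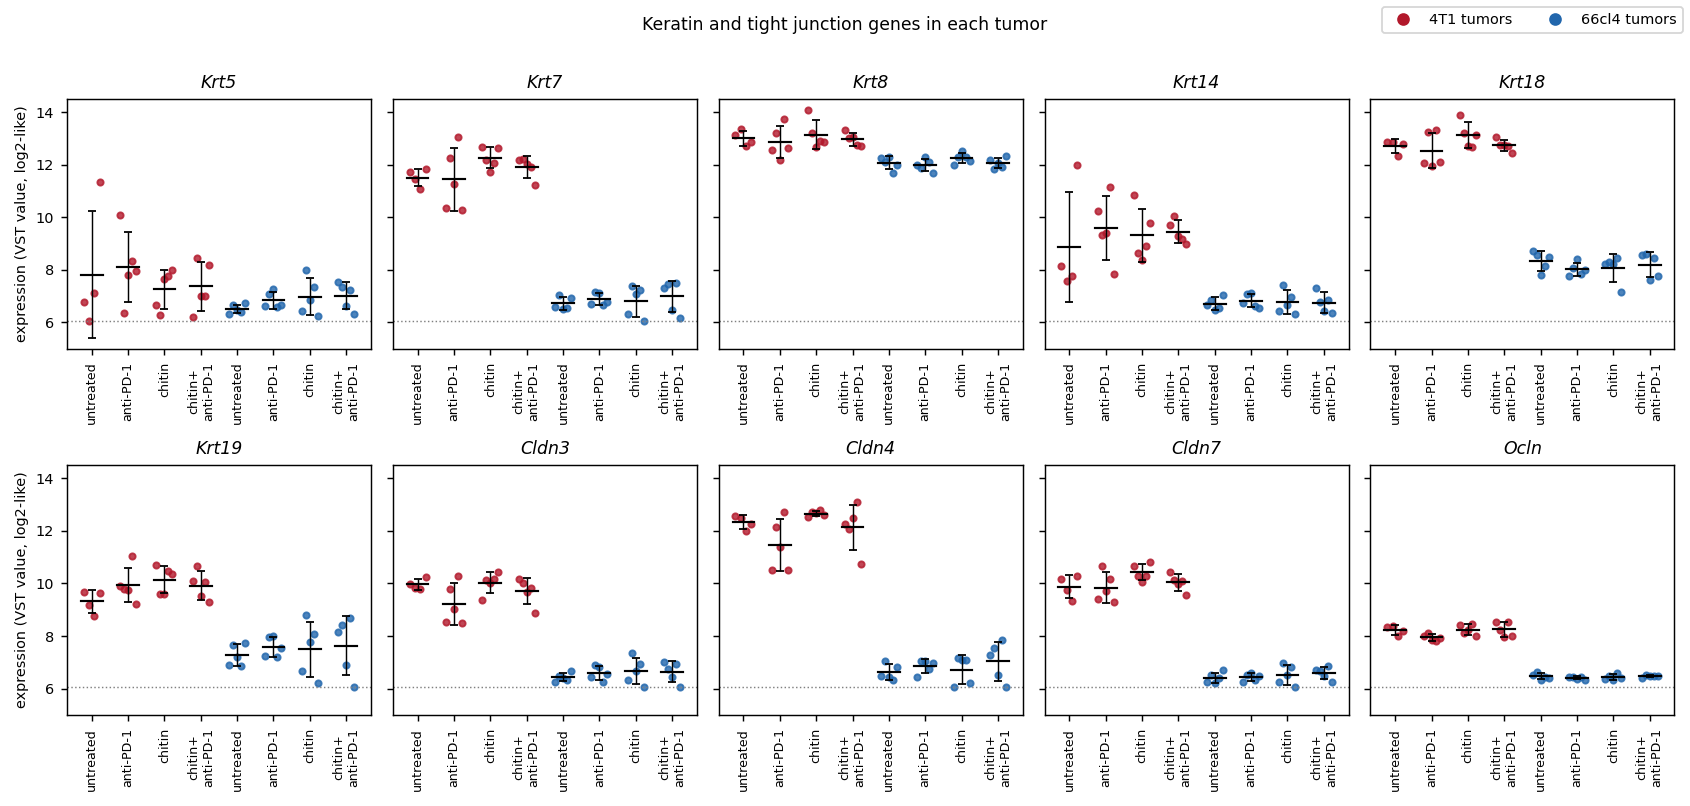
Expression (VST value, log2-like) of each gene in each tumor of the 8 groups, 4T1 in red and 66cl4 in blue; horizontal lines are group means, bars are the SD between tumors (n = 5, untreated 4T1 n = 4), and the dotted line at 6.05 marks a count of 0. Krt8 stays high in both models. Krt5 is near the dotted line in several tumors of both models, whereas the other genes fall to near that line or to clearly lower values in 66cl4.

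Krt8 alone among the keratins had high counts in both models. In 66cl4 tumors its normalized counts were 4806, 4262, 4928, 3152 and 3975 without treatment, 3901, 3625, 4859, 4264 and 3189.8 with anti-PD-1, 3969, 4821, 5709, 4832 and 4431 with chitin and 4511, 3505, 4186, 3721 and 4962 with chitin + anti-PD-1. In 4T1 tumors they were 8822, 10303, 6546 and 7306 in untreated tumors, 5979.9, 9383, 4548, 13669 and 6307 with anti-PD-1, 17145, 9388, 6348, 7560.3 and 7354 with chitin and 9966, 8149, 8360.2, 6723 and 6491 with chitin + anti-PD-1. The 2 models overlapped, and 18 of 19 4T1 tumors were above all 66cl4 tumors. The means were 8439 ± 2931 (SD, n = 19) and 4280.5 ± 663 (n = 20), a ratio of 1.97, and the VST difference was 0.91 ± 0.11 (SE), adjusted p = 4.12e-09. Krt8 shares 26.9% of its 50-base transcript stretches with the pseudogene Krt8-ps, so its count is less certain than those of the claudins, which share none.

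Krt18, the partner chain of Krt8, was low in 66cl4. Its normalized counts in 66cl4 tumors were 300.4, 257, 108, 167 and 235 in untreated tumors, 107, 152, 223, 116 and 137 with anti-PD-1, 178, 197, 184, 233 and 40.5 with chitin and 258, 269, 85.4, 230.1 and 107 with chitin + anti-PD-1. In 4T1 tumors they were 7389, 7227, 4966 and 6964, 4205, 9485, 3830.0, 10099 and 4273, 15017, 9227, 6561, 6416 and 8819.9 and 8297, 6731, 6797, 6494 and 5432 in the same order of groups. The lowest 4T1 tumor thus had more than 10 times the count of the highest 66cl4 tumor. The ratio of means was 40.4, and the VST difference was 4.62 ± 0.13 (SE), adjusted p = 4.23e-26.

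Per kilobase of exons of protein-coding transcripts, the 2 partner genes were nearly balanced in 4T1 and far apart in 66cl4. The ratio of Krt8 to Krt18 per kilobase was 0.612 to 1.08 in 4T1 tumors (median 0.876, n = 19) and 9.57 to 80.2 in 66cl4 tumors (median 16.7, n = 20). The highest ratio belonged to 66cl4 chitin tumor 5, which had the lowest Krt18 count. Of the summed normalized counts per kilobase of all 6 keratins, Krt8 made up 38.1% ± 4.75 (SD) in 4T1 and 90.9% ± 4.66 in 66cl4. These ratios and shares were chosen after the values were seen and are given as a description. In 4T1, the 3 type II keratins summed to 0.895 ± 0.101 times the 3 type I keratins per kilobase, whereas in 66cl4 this ratio was 5.40 to 75.6.

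Krt8 and Krt18 were correlated across 4T1 tumors and, by the same test, not across 66cl4 tumors. Over 19 4T1 tumors, Pearson's r of the VST values was 0.90 (permutation test, adjusted p = 4e-05 over 8 pair tests) and Spearman's rho 0.89 (adjusted p = 2e-05), and r was 0.83 without the 2 tumors farthest from the median Krt8 value. Over 20 66cl4 tumors, r was 0.01 (permutation adjusted p = 0.966) and rho was 0 (adjusted p = 1), and r was −0.01 without the 2 farthest tumors. Krt8 VST values spread less over 66cl4 tumors (SD 0.22) than over 4T1 tumors (SD 0.44). Krt18 had 57 to 355 reads in 66cl4 tumors and 2993 to 15838 in 4T1 tumors. The part of spread and depth in these coefficients, and whether the 2 coefficients differ, was not tested.

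**Figure D2:**
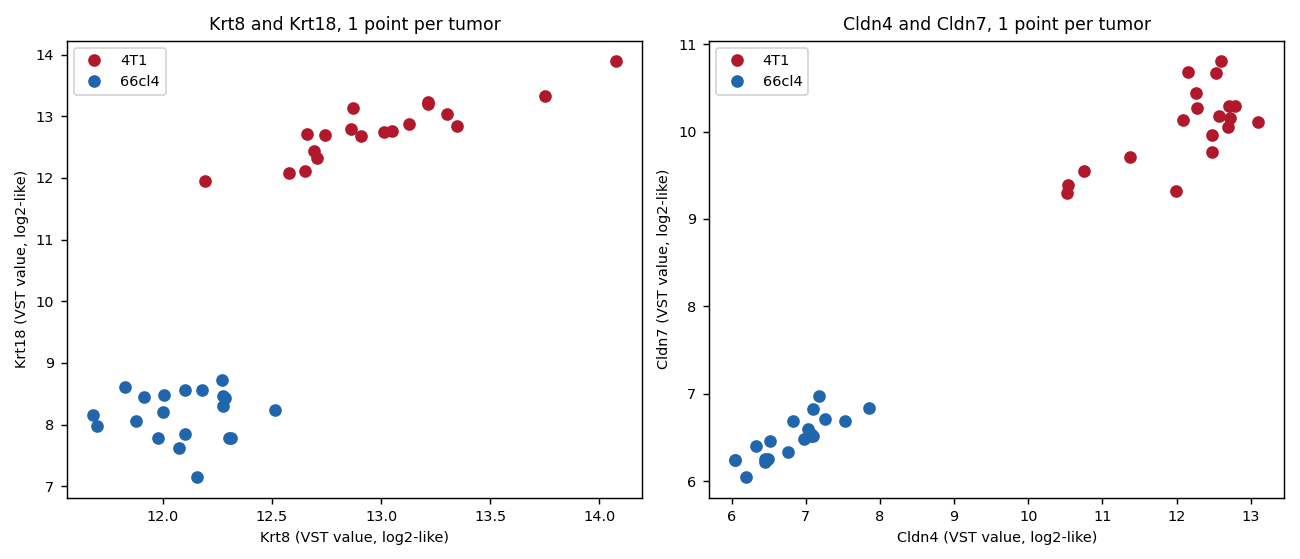
VST values (log2-like) of Krt18 against Krt8 (left) and of Cldn7 against Cldn4 (right), 1 point per tumor, 4T1 in red and 66cl4 in blue. Krt18 rises with Krt8 over 19 4T1 tumors (r = 0.90) and not over 20 66cl4 tumors (r = 0.01), while Cldn7 rises with Cldn4 in both models (r = 0.69 and 0.83).

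Krt7 and Krt19, further keratins of simple epithelium, were also higher in 4T1. Krt7 had 1113 to 8402 normalized counts in 4T1 tumors and 0 to 74.1 in 66cl4 tumors, a ratio of means of 138 and a VST difference of 4.93 ± 0.18 (SE), adjusted p = 3.52e-23. Krt19 had 316 to 1974 in 4T1 and 0 to 318 in 66cl4, a ratio of 8.56 and a VST difference of 2.33 ± 0.21 (SE), adjusted p = 5.08e-12. The Krt19 ranges met at a single point, where 66cl4 chitin tumor 2 stood just above untreated 4T1 tumor 4. In 66cl4, 1 of 20 tumors was listed at 0 for Krt7 (chitin tumor 5) and 1 for Krt19 (chitin + anti-PD-1 tumor 5).

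The basal keratins Krt5 and Krt14 varied most among 4T1 tumors. Krt14 had 163, 81.3, 104 and 3933 normalized counts in untreated 4T1 tumors, 1072, 518, 554, 2144 and 118 with anti-PD-1, 1718, 282, 210.1, 356 and 758 with chitin and 718, 928, 502, 454 and 379 with chitin + anti-PD-1. In 66cl4 its range was 2.13 to 66.0, just below the lowest 4T1 tumor, and the VST difference was 2.54 ± 0.28 (SE), adjusted p = 3.97e-10. Krt14 shares 13.9% of its 50-base stretches with Krt16 and Krt17, and reads of these genes may be split between them.

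Krt5 had 16.6, 0, 37.3 and 2493 normalized counts in untreated 4T1 tumors, 957, 2.68, 111, 200.5 and 133 with anti-PD-1, 11.4, 1.85, 88.8, 103 and 138 with chitin and 0.818, 229, 30.3, 30.9 and 171 with chitin + anti-PD-1. In 66cl4 tumors it had 2.50, 11.5, 5.28, 3.86 and 14.7, 10.3, 36.0, 48.7, 8.75 and 11.9, 4.73, 141, 21.0, 56.4 and 1.42 and 77.3, 57.8, 10.3, 48.6 and 2.24 in the same order of groups. The models overlapped over most of their range, and untreated 4T1 tumor 2 was listed at 0. Krt5 was called higher in 4T1 over all treatments (0.80 ± 0.32 (SE), adjusted p = 0.0215), the smallest difference of the 10 genes on the VST scale. Krt5 shares 8.52% of its 50-base stretches with other genes, mainly Krt6a, Gm5478 and Krt6b.

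Untreated 4T1 tumor 5 and 4T1 anti-PD-1 tumor 1 held the highest Krt5 counts, and they also stood apart in genes of cornified skin. The summed normalized counts of Krt10, Sbsn and Cst6, the 3 genes listed of 14 on the skin list, were 3909 and 1566 in these tumors, 38.8 to 255 in the other 4T1 tumors and 23.2 to 56.2 in 66cl4 tumors. The other 11 genes on that list, such as Krt1, Lor and Flg, are not among the 14318 genes. The same untreated tumor had the highest Krt14 count of all tumors. Without these 2 tumors, a setting chosen after the values were seen, the Krt5 difference over all treatments was 0.38 (adjusted p = 0.0844) and 9 of the 10 genes were called, and in untreated tumors it was 0.13 (adjusted p = 0.826). The Krt14 difference remained called, at 2.24 over all treatments and 1.11 in untreated tumors. Krt5 was also not called over all treatments with limma-voom on the recovered reads (1.61, adjusted p = 0.137). The part of the skin genes in the Krt5 values was not tested beyond these fits.

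**Figure D3:**
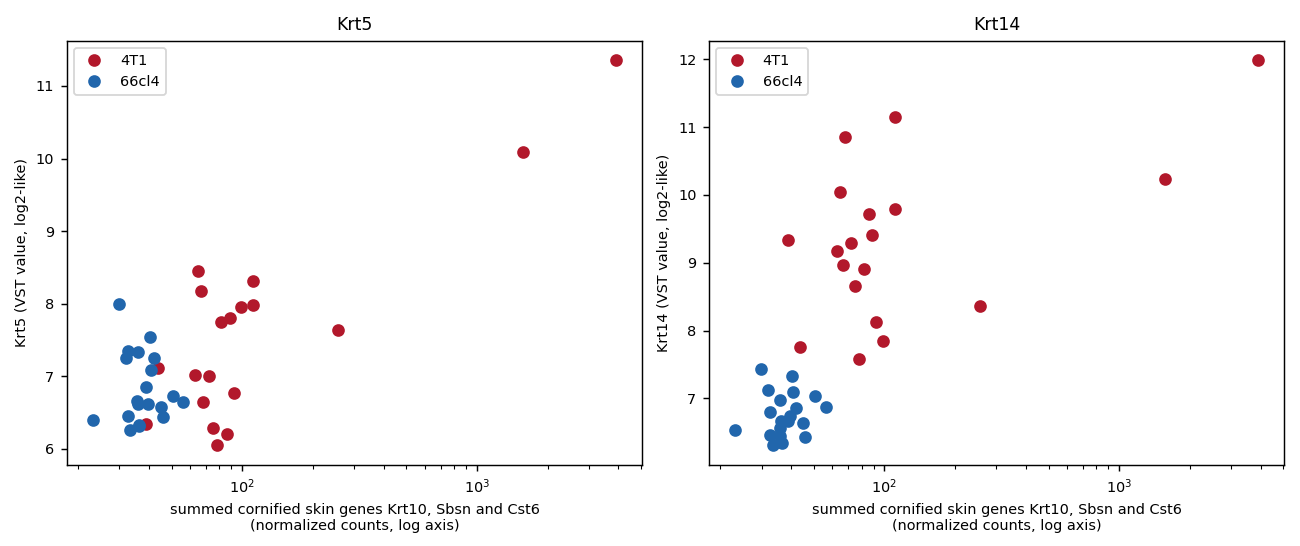
VST values (log2-like) of Krt5 (left) and Krt14 (right) against the summed normalized counts of the skin genes Krt10, Sbsn and Cst6 (log axis), 1 point per tumor, 4T1 in red and 66cl4 in blue. Untreated 4T1 tumor 5 and 4T1 anti-PD-1 tumor 1 lie far to the right (3909 and 1566) with the highest Krt5 values, while several 4T1 tumors with low skin sums have high Krt14.

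Krt5 and Krt14, the basal pair, had r = 0.59 over 19 4T1 tumors (permutation adjusted p = 0.00837; rho = 0.48, adjusted p = 0.0426) and r = 0.87 over 20 66cl4 tumors (adjusted p = 5.33e-05; rho = 0.84, adjusted p = 2e-05). The relation in 4T1 rested on the same 2 tumors, since r was 0.27 without the 2 tumors farthest in Krt5. In 66cl4 it was 0.77 without the 2 farthest. There, 10 of 20 tumors had 10 reads or fewer of Krt5 and 9 of Krt14, and the part of these low counts was not tested.

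Cldn4 had the largest difference of the 10 genes. It had 5976, 5585, 3956 and 4816 normalized counts in untreated 4T1 tumors, 1349, 4426, 2526, 6641 and 1336 with anti-PD-1, 5765, 6529, 6460.2, 6951 and 6075 with chitin and 4788, 4202, 5592, 8646 and 1595 with chitin + anti-PD-1. In 66cl4 it had 6.26, 33.2, 5.28, 2.58 and 20.02, 5.13, 34.1, 32.1, 16.3 and 28.6, 0, 42.7, 36.3, 36.7 and 0.711 and 49.6, 75.8, 6.89, 118 and 0, with 2 of 20 tumors listed at 0. No tumor of one model reached the range of the other. The ratio of means was 179, and the VST difference was 5.33 ± 0.18 (SE), adjusted p = 4.74e-24.

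Cldn3, Cldn7 and Ocln followed the same order of models without overlap. Cldn3 had 239.8 to 1261 normalized counts in 4T1 and 0 to 56.4 in 66cl4, a ratio of means of 60.3 and a VST difference of 3.15 ± 0.14 (SE), adjusted p = 6.22e-21. Cldn7 had 502 to 1654 and 0 to 28.2, a ratio of 119.8 and a VST difference of 3.56 ± 0.11 (SE), adjusted p = 9.85e-26. Ocln had 113 to 251 normalized counts in 4T1 and 2.39 to 11.5 in 66cl4, a ratio of 32.2 and a VST difference of 1.71 ± 0.05 (SE), adjusted p = 4.41e-26. In 66cl4, 18 of 20 tumors had 10 reads or fewer of Ocln, 14 of Cldn7, 12 of Cldn3 and 8 of Cldn4. The same held in 10 of 20 for Krt5, 9 for Krt14 and 8 for Krt7. Ratios of these 7 genes thus rest on few reads, and counting error alone is large.

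**Figure D4:**
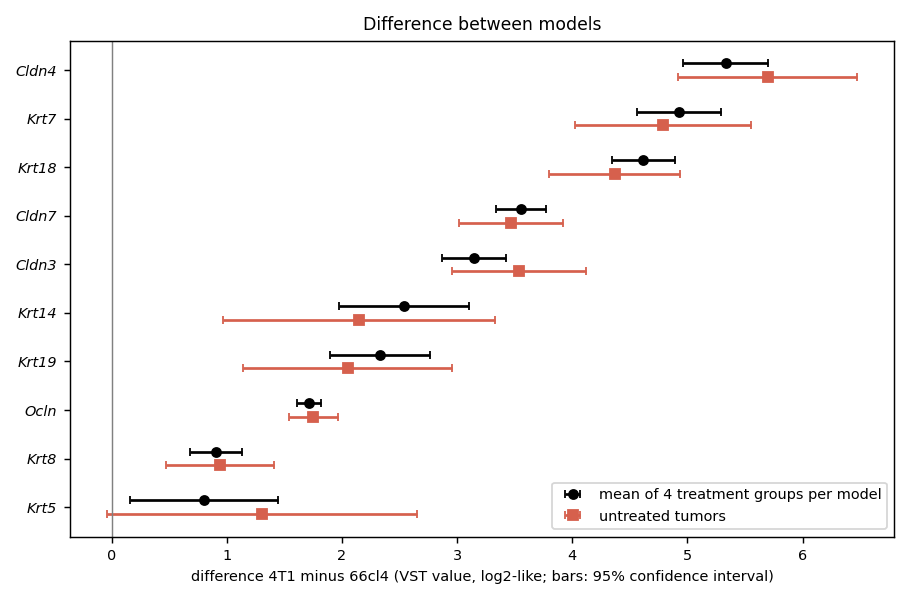
Difference 4T1 minus 66cl4 (VST value, log2-like) for each gene, as the mean of the 4 treatment groups per model (black circles) and in untreated tumors (red squares), with 95% confidence intervals from limma as bars. The differences over all treatments run from 0.80 for Krt5 to 5.33 for Cldn4, and only the interval of Krt5 in untreated tumors (-0.04 to 2.66) includes 0.

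The order of levels per kilobase differed between the models. In 4T1 it ran from Krt18 (5063 ± 1808 normalized counts per kilobase, SD, n = 19) through Krt8 (4310.2 ± 1497), Cldn4 (2702 ± 1117) and Krt7 (938 ± 450.2) to Cldn7, Cldn3, Krt19, Krt14, Krt5 and Ocln (41.0 ± 10.6). Krt18 was above Krt8 in 16 of 19 tumors and Cldn4 above Krt7 in all 19, whereas Cldn7 was above Cldn3 in 10, Cldn3 above Krt19 in 12 and Krt5 above Ocln in 8, so these neighbors did not differ beyond their spread. In 66cl4, Krt8 (2186 ± 339, n = 20) was above Krt18 (125 ± 49.5) in all 20 tumors, and Krt18 was above Krt19 (63.8 ± 58.7) in 18. Cldn4, Krt5, Krt14, Cldn3, Krt7 and Cldn7 followed with means of 15.1 down to 5.53 and changed places from tumor to tumor, and Ocln was last (1.28 ± 0.541). Krt7 has long transcript variants that lengthen its exon union, so that its level per kilobase may be understated.

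In 66cl4 tumors, Krt5, Krt7, Krt14, Krt19, Cldn3, Cldn4 and Cldn7 varied together from tumor to tumor, and the median r of each of these 7 with the other 9 genes was 0.79 to 0.90. For Krt18 the median r was 0.59, for Ocln, the gene with the lowest level in this model, 0.19 and for Krt8 0.01. These correlations are a description over 20 tumors that share depth differences and 4 treatments. In 4T1, the median r was 0.70 for Krt7, 0.61 for Cldn7, 0.59 for Krt18 and −0.26 for Krt5.

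**Figure D5:**
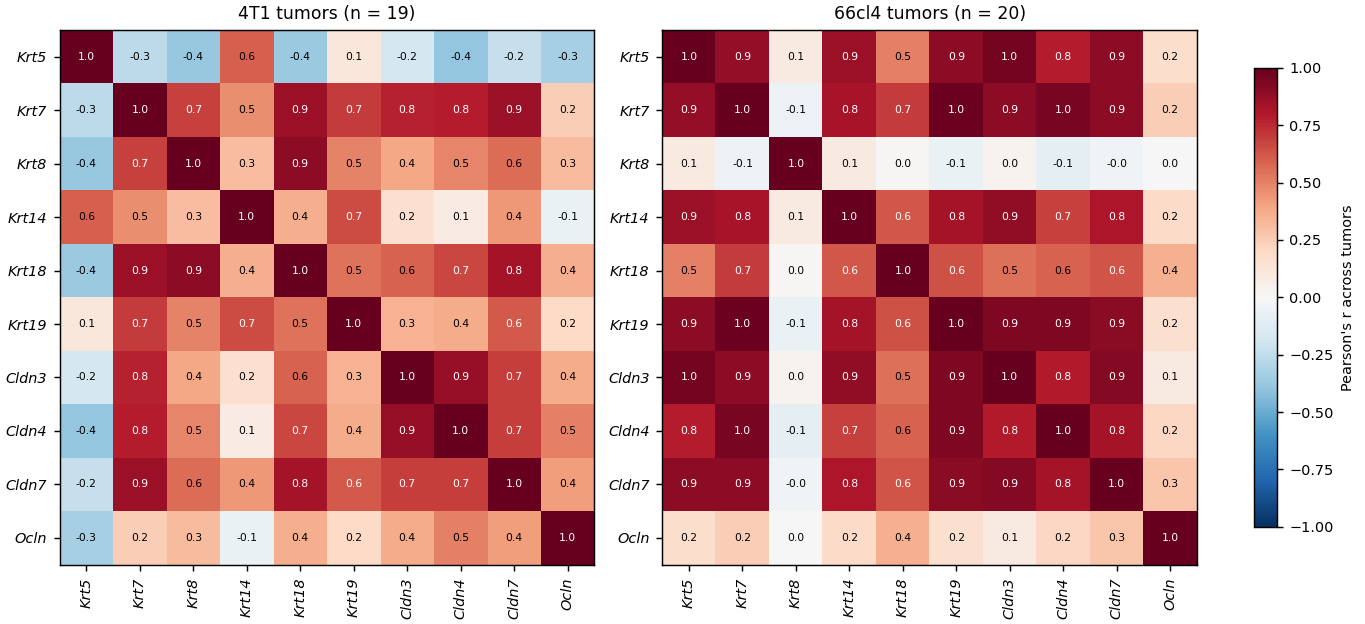
Pearson's r of VST values between each pair of the 10 genes across tumors, 4T1 (left, n = 19) and 66cl4 (right, n = 20), from −1 (blue) to 1 (red). In 66cl4 the claudins, Krt5, Krt7, Krt14 and Krt19 form a block of high r from which Krt8 (median r = 0.01) and Ocln (median r = 0.19) are set apart.

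The tumors at the ends of this shared variation could be named. 66cl4 chitin tumors 1 and 5 and chitin + anti-PD-1 tumor 5 were the lowest for Krt19 (11.8, 0.711 and 0 normalized counts) and had 0 to 2.36 counts of Cldn3. Chitin tumor 2 and chitin + anti-PD-1 tumor 4 were the highest for Krt19 (318 and 288). The 4 listed genes of lactating mammary epithelium (Csn1s1, Csn2, Csn3 and Btn1a1, of 10 on that list) summed to 8.27, 7.11 and 6.73 normalized counts in the 3 low tumors, and to 31.4 and 120 in the 2 high ones. Their sum was highest, at 594, in chitin + anti-PD-1 tumor 1, which had 166 counts of Krt19, and it was 516 in anti-PD-1 tumor 3, which had 138. The part of milk gene-expressing epithelium in these values was not tested. Krt8 was between 3721 and 4962 in these 7 tumors.

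The claudin pairs varied together in both models. Cldn3 and Cldn4 had r = 0.87 in 4T1 (permutation adjusted p = 9.6e-05; rho = 0.68, adjusted p = 0.00349) and r = 0.80 in 66cl4 (adjusted p = 6e-05; rho = 0.88, adjusted p = 2e-05). Without the 2 tumors farthest in Cldn3, r was 0.73 and 0.84. Cldn4 and Cldn7 had r = 0.69 in 4T1 (permutation adjusted p = 0.00153; rho = 0.55, adjusted p = 0.0222) and r = 0.83 in 66cl4 (adjusted p = 4e-05; rho = 0.89, adjusted p = 2e-05), and 0.50 and 0.81 without the 2 tumors farthest in Cldn4. The smallest unadjusted p these permutations can give is 1e-05. In 66cl4, 14 of 20 tumors had 10 reads or fewer of Cldn7, 12 of Cldn3 and 8 of Cldn4. The part of these low counts in the coefficients was not tested.

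The genes whose values were most like those of 3 chosen members, by Pearson's r within each model averaged over 19 and 20 tumors, differed by member. For Cldn7 they were Epcam, an epithelial adhesion protein (0.90), Cdh1, the E-cadherin of adherens junctions (0.85), St14, a membrane serine protease of epithelium (0.83), Stard10 (0.81) and Cdcp1 (0.79). For Krt14 they were Krt17, a further type I keratin (0.82), Serpinb5 or maspin (0.80), Col9a3 (0.73), Col17a1, a collagen of hemidesmosomes (0.72), and Ehf, an epithelial ETS factor (0.72). For Krt8 they were Lgals1 or galectin-1 (0.82), Bok (0.78), Clic1 (0.76), Ncaph2 (0.74) and Baiap2 (0.73).

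Other keratins and claudins were mostly not listed, and those called moved in both directions. Over all treatments, 40.8% of all genes were called higher and 38.0% lower in 4T1, shares against which the counts of these lists and of the next ones are to be read. Of 19 other keratins, 5 were listed, of which Krt17 (1.23, adjusted p = 4.69e-06), Krt10 and Krt15 were higher and Krt80 (-0.34, adjusted p = 0.00222) lower in 4T1 over all treatments. Of 19 other claudins, 8 were listed, with Cldn2 (434 against 81.4 mean normalized counts), Cldn23 and Cldn1 higher and Cldn9 (20.1 against 94.8) and Cldn6 (9.56 against 38.9) lower in 4T1. Cldn5, Cldn12 and Cldn15 were not called. With 3 of 8 higher and 2 of 8 lower, the other claudins were near the shares over all genes. Cldn34c1, which was not on the list, had a mean of 0.489 normalized counts in 4T1 and 22.2 in 66cl4. The median VST difference was 0.69 over the other keratins and 0.07 over the other claudins, against 0.01 over all genes.

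Genes of proteins that hold claudins and keratins in place were mostly higher in 4T1 too. Of 16 listed tight junction partners of 17, 12 were called higher and 2 lower over all treatments (40.8% and 38.0% of all genes), with a median difference of 0.97 against 0.01 over all genes. Lsr, the lipolysis-stimulated receptor at corners where cells meet (2.78, adjusted p = 6.9e-28), Patj (2.50) and Marveld3 (1.70) were the highest, whereas the scaffolds Tjp1, which encodes ZO-1 (-1.37, adjusted p = 6.76e-16), and Magi3 (-0.77) were lower in 4T1. Tjp1 had 1213 mean normalized counts in 4T1 and 3329 in 66cl4.

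Of 12 desmosome and keratin linker genes, all listed, 9 were called higher and 1 lower in the same comparison, with a median difference of 1.46. Dsp, the desmoplakin that anchors keratin filaments, had 1285 mean normalized counts in 4T1 and 18.3 in 66cl4 (difference 3.66, adjusted p = 3.23e-24). Jup (3.08) and Dsg2 (2.95) were also higher, and the cytolinker Plec was lower (-0.43, adjusted p = 6.86e-06).

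Of 20 epithelial adhesion genes and regulators, all listed, 18 were called higher and 2 lower, again against 40.8% and 38.0% of all genes, with a median difference of 1.44. Epcam had 5902 mean normalized counts in 4T1 and 40.1 in 66cl4 (5.40, adjusted p = 3.26e-24), and Cdh1 had 2716 and 47.7 (4.18). The basal regulator Trp63 (-0.81, adjusted p = 3.41e-08) and Klf5 (-0.27) were lower in 4T1. Trp63 thus had the opposite direction to Krt5 and Krt14, with 31.0 and 99.6 mean normalized counts.

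Markers of other cell types were also among the genes called between the models. Over all treatments, where 40.8% of all genes were called higher, 10 of 12 adipocyte, 9 of 12 muscle, 8 of 10 endothelial, 6 of 10 fibroblast, 5 of 8 myoepithelial, 4 of 4 listed milk and 2 of 3 listed skin genes were higher in 4T1, and 1 of 10 leukocyte genes. Lower in 4T1 were 7 leukocyte, 2 myoepithelial, 1 fibroblast and 1 muscle gene, where 38.0% of all genes were called lower. The median VST difference was 1.15 over the fibroblast, 0.85 over the adipocyte and milk, 0.83 over the muscle and 0.56 over the skin genes. It was 0.49 over the myoepithelial, 0.47 over the endothelial and -0.46 over the leukocyte genes, against 0.01 over all genes. Group medians of the summed fibroblast genes were 38206 to 61839 normalized counts in 4T1 and 10785 to 15995 in 66cl4. In untreated tumors, 5 of 10 endothelial, 4 of 10 fibroblast, 2 of 8 myoepithelial, 2 of 3 skin, 1 of 12 muscle and 1 of 10 leukocyte genes were higher in 4T1 (28.7% of all genes), 3 leukocyte, 2 myoepithelial, 1 fibroblast and 1 muscle gene were lower (27.1%), and 0 of the 12 adipocyte and 0 of the 4 milk genes were called by limma, nor had any an unadjusted p under 0.05. The summed leukocyte genes ranged from 7258 to 18339 normalized counts in 4T1 and from 12375 to 18370 in 66cl4. No defining marker of these lists that is in the table was at 0 in all tumors of a group. The part of these cell types in the differences between models was not tested.

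None of the 10 genes passed the limma test for a treatment within a model. In 4T1, each single treatment, the combination, and the tumors given chitin with or without anti-PD-1 against the rest gave 0 of 10 genes called, and 0% of all genes were called. In 66cl4, the same 4 comparisons also gave 0 of 10 genes and 0% of all genes. limma-voom gave 0 of 10 in each of these comparisons as well. At an unadjusted p under 0.05 in 4T1, 1 of the 10 genes passed with anti-PD-1 (8.89% of all genes) and 1 with chitin (2.77%), and 0 passed with the combination (2.56%) or for all chitin-treated tumors against the rest (7.28%). In 66cl4, 0 of 10 passed in the same comparisons, in which 5.36%, 11.4%, 10.6% and 15.6% of all genes did. The treated groups of a model were compared with the same untreated tumors, so these results are not independent.

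In 4T1, the claudins had their lowest group means with anti-PD-1 except Cldn7. Cldn3 was 247, 767, 397, 1105 and 239.8 normalized counts with anti-PD-1 and 891, 791, 758 and 1079.9 untreated. The VST difference was -0.74 (95% confidence interval -1.43 to -0.06, unadjusted p = 0.0354, adjusted p = 0.533 by limma). Anti-PD-1 tumors 1, 3 and 5 lay below all untreated tumors, and tumors 2 and 4 did not. For Cldn4 the difference was -0.87 (95% confidence interval -1.76 to 0.02, adjusted p = 0.559), again with tumors 1, 3 and 5 low. The summed adipocyte genes were 23679, 226, 4725, 12383 and 8388 normalized counts in anti-PD-1 tumors 1 to 5 and 363 to 2092 in untreated tumors, and their part in the claudin values was not tested. With weights estimated for each tumor, 2 of the 10 genes were called lower with anti-PD-1, together with 960 genes in all.

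Krt19 had the smallest unadjusted p with chitin in 4T1. Its normalized counts were 1539.8, 658, 649, 1281 and 1173 with chitin and 699, 458, 316 and 669.7 untreated, and the groups overlapped. The VST difference was 0.82 (95% confidence interval 0.11 to 1.53, unadjusted p = 0.0258, adjusted p = 1 by limma). Cldn7 followed with 0.54 (unadjusted p = 0.0558) and Krt7 with 0.75 (unadjusted p = 0.103). Chitin + anti-PD-1 gave differences from −0.45 for Krt5 to 0.60 for Krt19, none with an unadjusted p under 0.05.

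In 66cl4, Krt18 had the lowest and Krt5 the highest VST difference from untreated tumors under each treatment. They were -0.32 and 0.33 for anti-PD-1, -0.27 and 0.47 for chitin, and -0.14 and 0.50 for the combination. The Krt5 difference with chitin + anti-PD-1 had a 95% confidence interval of -0.06 to 1.07. Krt8 differences lay between −0.08 and 0.17, the intervals being -0.35 to 0.18, -0.09 to 0.44 and -0.27 to 0.25. The models were also compared for the difference between tumors given chitin and those not given it, which was called for 14 genes (0.0978%) and for 0 of the 10 genes (at an unadjusted p under 0.05, for 13.2% of all genes and 0 of the 10), and the smallest adjusted p among the 10 was that of Krt5 (0.554).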

How the data were processed

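RNA of whole primary tumors was sequenced by the authors as stranded TruSeq libraries with reads of 150 bases, aligned to mm10 with HISAT2 and counted per gene with summarizeOverlaps (intersection non-empty mode, strand taken into account); the gene annotation and the tool versions are not given in the sources used here. Genes with over 10 reads in at least 10% of cases were kept. The log2-like values deposited by the authors are the variance stabilizing transformation (DESeq2) of counts divided by 1 size factor per tumor. Their shared lowest value, a count of 0, fixed the inverse transformation, which gave whole reads (within 0.001) for 100% of values. These reads gave depth, normalized counts, limma-voom and equal-depth values. Reads are not independent molecules, so intervals from counts would cover counting error only.

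Tumors were grouped by the labels. Linear models of limma 3.58.1 (R 4.3.3) were fitted to all 8 groups for the models and within each model for treatments. They used trended empirical Bayes variances and Benjamini-Hochberg adjustment. The comparison of models over all treatments was also run on simulated counts, in which no weakly expressed gene was changed. Changes in weakly expressed genes and the treatment comparisons were not covered by that simulation. Pairs of genes were tested with 100000 permutations in scipy 1.17.1. Python 3.11.15 was used with matplotlib 3.10.9, pandas 2.3.3 and numpy 2.4.6. Positions and promoters came from RefSeq GRCm38.p6, exon lengths from GENCODE M21. Deviations of same-numbered tumors of different groups had a median correlation of 0.02 over 76 pairs of tumors, with 23 over 0.1. Between untreated and anti-PD-1 66cl4 tumors it was 0.45, 0.29, 0.54, 0.28 and -0.09 for numbers 1 to 5. In 0 of 16 pairs of groups were all correlations over 0.1, and no pairing was used.

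Named genes are the 10 members, the 3 genes of each list with the largest called difference in each direction, and the 5 genes most like Krt8, Krt14 and Cldn7. Other names and the left-out tumors high in skin genes were chosen after values were seen. The members and lists were chosen with earlier results of these data known. Alternatives were a filter on the lowest 25% of genes, no trend, median centring, quantile normalization, tumor weights, limma-voom, equal depth, tumor number as block, other sample sets and leaving out each tumor. The removed untreated 4T1 tumor 3 was not analysed here.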

Additional observations from a re-analysis of the deposited data

Results flagged for a closer look

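Within each gene and group, the highest and lowest tumor were compared with the rest of the group. In 4 of 80 cases a tumor stood farther from its group than the 95% limit for such gaps, about the share of 1 in 20 that chance gives. Krt14 in untreated 4T1 tumor 5 was the highest of its group (VST value 11.99, 3933 normalized counts, next tumor 8.13), and this is one of the 2 tumors high in skin genes. Krt18 in 66cl4 chitin tumor 5 was the lowest of its group (7.15, 40.5 normalized counts from 57 reads, next tumor 8.21), the tumor that was also listed at 0 for Krt7, Cldn3 and Cldn7. Krt18 in untreated 4T1 tumor 4 was the lowest of its group (12.32, next tumor 12.79). Krt7 in 4T1 chitin + anti-PD-1 tumor 5 was the lowest of its group (11.22, next tumor 11.93).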

How the results depend on the processing

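The differences between models kept their direction for all 10 genes under all alternatives run, and 8 to 10 genes were called in each. The count of 8 came from the filter on the lowest 25% of genes, which removed Krt5 and Ocln. Over all treatments, Krt5 was not called with limma-voom (1.61) or without both tumors high in skin genes (0.38). In untreated tumors it was called only without untreated 4T1 tumor 2 (1.90). Krt14 in untreated tumors was 1.11 without untreated 4T1 tumor 5. Quantile normalization turned the untreated split from 4106 higher and 3877 lower genes into 3370 and 4642.

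For the treatments, no alternative but tumor weights called any of the 10 genes. That fit called 2 of them for anti-PD-1 in 4T1 and 960 genes in all, 297 for all chitin-treated 4T1 tumors, 185 for those of 66cl4 and 1004 for the difference between models in the chitin response. The last count, 14 genes, was 8 after the filter and at equal depth, 39 after quantile normalization, 0 without both tumors high in skin genes, and 0 for chitin alone against untreated. For all chitin-treated tumors, both models in 1 fit gave 58 genes in 4T1 and 1 in 66cl4, and the filter gave 6 in 66cl4. Equal depth gave 1 gene for 66cl4 chitin. Correlations of same-numbered tumors had a median of 0.02 over 76 pairs and were over 0.1 in 23. With the tumor number as replicate block, counts were 104 for the difference between models and 1 for the 4T1 combination. They were 2, 7 and 16 for 66cl4 chitin, combination and all chitin-treated tumors. The cause of these changes was not tested.

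Leaving out each tumor in turn gave 0 (without untreated 4T1 tumor 5) to 677 genes (without 4T1 anti-PD-1 tumor 2) for the difference between models, 0 to 80 for 4T1 anti-PD-1 (without its tumor 2), 0 to 1 for chitin-treated 4T1 tumors, 0 to 25 for 66cl4 chitin and 0 to 269 for chitin-treated 66cl4 tumors (both without untreated tumor 3), and 0 to 3 for the 66cl4 combination. Uncalled chitin differences changed sign for Krt8 (−0.0067 to 0.22) and Krt14 (−0.068 to 0.67) in 4T1, and for Krt14 (−0.097 to 0.044), Krt18 (−0.11 to 0.074) and Krt19 (−0.025 to 0.33) in 66cl4. Krt5 in 4T1 turned to 0.19 without both tumors high in skin genes, and limma-voom turned Krt7 (−0.58), Krt19 (−1.04), Cldn3 (−0.020) and Cldn4 (−0.48) in 66cl4. The correlation of Krt5 and Krt14 in 4T1 was 0.37 (without untreated tumor 5) to 0.69, and 0.27 without both tumors. That of Krt8 and Krt18 in 66cl4 was −0.056 to 0.091 when each tumor was left out, −0.055 after quantile normalization and −0.011 at equal depth. Low counts limit Ocln and Cldn7 most in 66cl4, and also Cldn3, Cldn4, Krt5, Krt7 and Krt14.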
